A study of Miniopterus schreibersii with 14 samples.

Results

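The digit-enriched set holds 100 assembled transcript components, out of 64618 in the deposited table, that scored higher in digits than in the adjoining interdigital tissue at stages S15-17 of bat limb development. A component is 1 unit of the transcript assembly, so a gene may be spread over several. For each of the 12720 components whose scores in the 6 S15-17 libraries averaged 50 or more, the log2 ratio of digit to interdigital score, with 1 added to each, was taken for the thumb side, the wing region and the foot. The smallest of the 3 ratios ranked the components, and the 100 highest were taken. Members were thus chosen by their S15-17 scores, which are given below as a description with no test. The 6 libraries of S14 buds and the 2 of fetal metapodials (metacarpals and metatarsals, the bones between wrist or ankle and digits) played no part in the choice and carry the tests.

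Messenger RNA was sequenced from 14 pieces of the autopod, the hand or foot end of the limb, of embryos of Miniopterus schreibersii, the common bent-wing bat. At S14 the forelimb bud and the hindlimb bud were each cut into middle, anterior and posterior parts. At S15-17 there were 3 digit libraries (forelimb digit I, forelimb digits II-V and hindlimb digits I-V) and 3 interdigital libraries (between forelimb digits I and II, between forelimb digits II and V, and from the foot). The fetal stage gave metacarpals of digits II-V and metatarsals of digits I-V. Each part had 1 library. The sources used here do not say how many embryos went into a library. Matched parts therefore stand in for replicates. In the fits with fetal libraries, p-values mostly measure the spread between bud parts. The main fits within the buds hold both limb and part. Their p-values therefore measure how far the pattern over parts differed between the limbs.

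The table gives each component a whole-number score per library, a normalized count that the authors rounded. The libraries held 4550754 to 7648427 reads, recovered from the regular steps in the scores. Components carry assembly numbers only. Of these numbers 0 matched the 22775 bat genes in the RefSeq table used here, so no member has a gene name, a role, a marker or a sequence, and the dissected tissues could not be checked against their markers. The middle part of the forelimb bud stood apart from the other buds for these members: they took 0.392% of its score, against 0.237% to 0.272% in the other 5 buds. The main calls and medians that use it are given with and without it.

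Digits begin as rods of condensing mesenchyme that turn into cartilage and later ossify. The tissue between them is removed by cell death in the foot and around the free thumb, while bats keep it between the long fingers as the wing membrane. Metapodials grow by endochondral ossification, in which cartilage is replaced by bone, and the metacarpals of the bat wing become far longer than the metatarsals. These are facts known of limb development, not results of these data.

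At S15-17 the median difference in each region put digits about 2 to 3 times as high as the adjoining tissue, with a wide range over members. The median log2 difference was 1.13 on the thumb side, with a range of 0.70 to 4.72. In the wing region it was 1.53 (0.70 to 5.66) and in the foot 1.24 (0.67 to 3.35). The wing region thus had the widest median gap, and 35 members were over 4-fold higher in wing digits than in the tissue between them, against 10 on the thumb side and 16 in the foot. The same values were not taken over all components, so these describe the members only. The thumb side gave the smallest of the 3 differences, and so set the rank, for 56 members; the foot did so for 29 and the wing region for 15. In 43 members all 3 differences were over 2-fold, and in 88 every digit library scored above every interdigital library.

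Levels within the digits differed as well. Digit I was the highest of the 3 digit libraries for 54 members, digits II-V for 26 and hindlimb digits for 20. The tissue between digits I and II was the highest of the interdigital libraries for 65 members, the foot for 24 and the tissue between digits II and V for 11. Whether all components share this order of libraries was not examined. The median member score was 269 in digit I, 238.5 in digits II-V and 243.5 in hindlimb digits, against 104 in interdigital tissue I-II, 74.5 in interdigital tissue II-V and 86.5 in the foot. Averaged over its 3 libraries, the digit score ran from 72.7 to 3400 over members, with 16 members at 1000 or more. The interdigital mean ran from 16.3 to 1660.

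**Figure D1:**
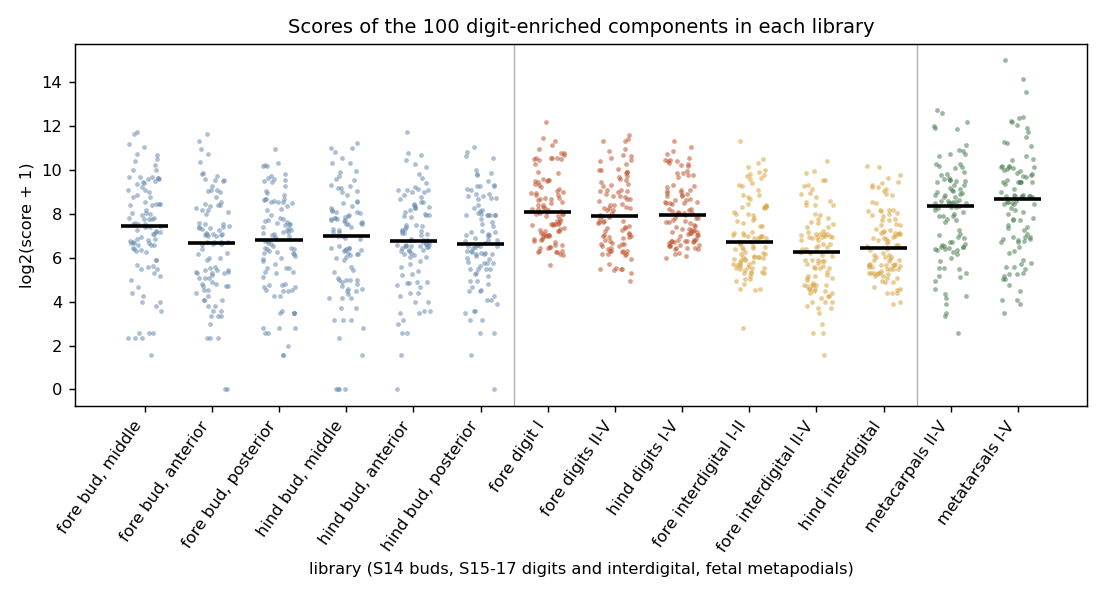
Scores of the 100 digit-enriched components as log2(score + 1) in each of the 14 libraries, 1 point per component, with a black bar at the median. S14 buds are on the left, S15-17 digits and interdigital tissue in the middle (these 6 chose the members) and fetal metapodials on the right. Median scores are 97.5 to 172 in buds, 238.5 to 269 in digits, 74.5 to 104 in interdigital tissue, and 320.5 and 404.5 in metacarpals and metatarsals.

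The leading member by the rule was comp10215_c0. It scored 628, 400 and 353 in digit I, digits II-V and hindlimb digits, against 129, 53 and 64 in the matching interdigital libraries. Next came comp2806_c0, with 299, 691 and 499 in the digits against 65, 121 and 132 between them. The most abundant member in digits was comp174_c0, at 4610, 3098 and 2493 in the digits against 2499, 1363 and 1124 in the interdigital tissue. The next, comp3772_c0, had 2549, 2729 and 2118 against 1443, 988 and 1156. Both abundant members showed smaller ratios than the leading pair, and in comp174_c0 interdigital tissue I-II scored slightly above hindlimb digits.

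The edge of the set was narrow. The last member inside, comp2773_c0, had a smallest log2 difference of 0.671, and the first component outside, comp8017_c0, had 0.668. In comp2773_c0 the digits scored 1709, 1214 and 1383 and the interdigital tissue 1021, 742 and 868. In comp8017_c0 they scored 239, 169 and 298 against 150, 38 and 158.

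Between S14 buds and fetal metapodials, on libraries that did not choose the members, more members were higher than lower in the fetal bones. Of the 100, 50 rose, 21 fell and 29 were not called. Over all 20429 components tested, 27.5% were called higher and 39.4% lower in metapodials. Among the 12720 components abundant enough for the rule these shares were 22.8% and 47.9%. With no filter on low scores, 20.6% of 63971 components were called higher and 14.3% lower, against 46 and 17 members, so the share of lower calls among members lay below that of all components with the filter and above it without. The median log2 difference over members was 1.13, against -0.23 over all components tested and -0.41 over the 12720. The test was limma on log2(score + 1) with limb as covariate, and a call means a Benjamini-Hochberg adjusted p under 0.05 over all components, two-sided.

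The increases were often large. The 50 members that rose did so by log2 differences of 1.03 to 9.91, with a median of 3.17. All 50 were over 2-fold higher, a size that 21.8% of all components reached with a call. Of them 37 were over 4-fold higher, against 12.9% of all, and 27 over 8-fold higher, against 7.54%. Both fetal libraries lay above all 6 buds in 46 members, and in 28.2% of all components. Both lay below all 6 buds in 19 members, and in 38.8% of all components. Set against the 5 buds other than the middle forelimb bud, both lay above in 50 members (28.9% of all components) and below in 19 (39.6%). The 21 members that fell did so by log2 differences of -0.58 to -4.18. Of them 18 were over 2-fold lower, against 27.0% of all components, 7 over 4-fold lower, against 10.5%, and 3 over 8-fold lower, against 4.1%. Median-centred libraries moved the median of all components to -0.48 and upper-quartile scaling to -0.03, and that of the members to 0.88 and 1.34. Both scalings shift all components of a library alike, apart from the added 1 in upper-quartile scaling. The gap between both medians, 1.36 under all 3 scalings, therefore could hardly change and is no check of the scaling. The gap was 0.88 with no filter, where the median of all components was 0.25, and 0.92 without metatarsals, where the median of the members was 0.74.

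**Figure D2:**
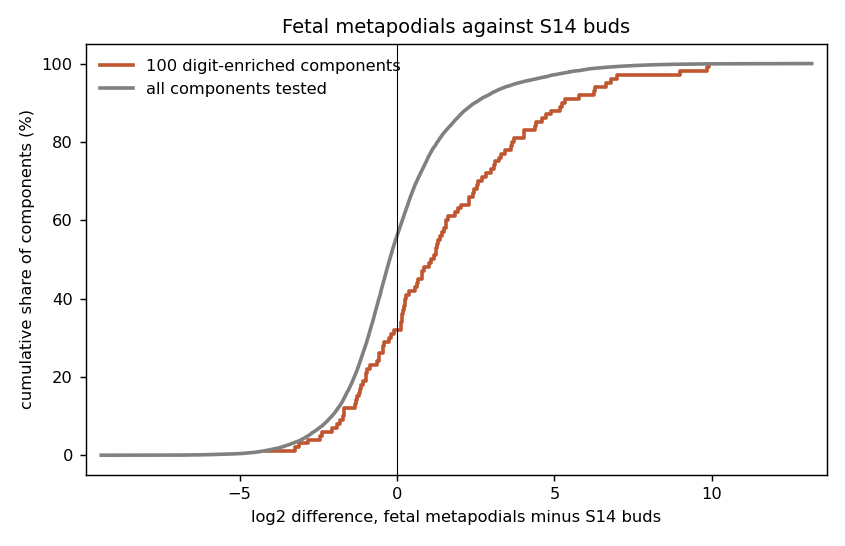
Cumulative share of components (vertical axis, percent) at or below each log2 difference between fetal metapodials and S14 buds (horizontal axis), for the 100 digit-enriched components and for all 20429 tested. The line of the 100 components lies to the right of the other, with medians of 1.13 and -0.23.

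Components comp3652_c0 and comp3688_c0 had the largest log2 differences among members, in an order that depends on the pseudocount: with a pseudocount of 5 they were 8.48 for comp3652_c0 and 9.15 for comp3688_c0. Component comp3652_c0 scored 1874 in metacarpals and 3374 in metatarsals, against 2, 0 and 2 in the middle, anterior and posterior forelimb bud and 0, 5 and 5 in the same parts of the hindlimb bud. The groups do not overlap, and the buds were close to 0. In reads this was 3552 in the fetal libraries against 8 in the buds, a depth-adjusted ratio of 1060 with an exact 95% interval, for counting error only, of 537 to 2460. The limma log2 difference was 9.91 (SE 0.74, adjusted p = 3.9e-06). Its digit scores of 160, 75 and 111, against 65, 36 and 59 in interdigital tissue, lay between those of buds and metapodials.

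Component comp3688_c0 followed the same course. It scored 6628 in metacarpals and 11980 in metatarsals, against 38, 9 and 21 in the middle, anterior and posterior forelimb bud and 0, 7 and 11 in the hindlimb bud. Again every fetal score was above every bud score, by a limma log2 difference of 9.85 (SE 0.97, adjusted p = 2e-05). In between, digits scored 363, 331 and 363 and interdigital tissue 126, 28 and 49.

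In the opposite direction, comp5985_c0 scored 10 in metacarpals and 35 in metatarsals, against 428, 339 and 370 in the middle, anterior and posterior forelimb bud and 571, 243 and 290 in the hindlimb bud. The groups were far apart, with a limma log2 difference of -4.18 (SE 0.42, adjusted p = 2.1e-05). Digits, at 145, 70 and 142, already scored below every bud, and interdigital tissue had 84, 18 and 72. Component comp10773_c0 scored 45 and 16 in metacarpals and metatarsals, against 334, 339 and 169 in the forelimb buds and 385, 241 and 197 in the hindlimb buds, in the same order of parts. Its limma log2 difference was -3.25 (SE 0.39, adjusted p = 7e-05).

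The leading members by digit enrichment went different ways. Component comp10215_c0 had scores of 354 and 561 in the fetal bones and 42 to 168 in the buds, and so rose (limma log2 difference 2.41, SE 0.42, adjusted p = 0.00067). Component comp2806_c0 fell to 57 and 53 in the fetal bones, against 104 to 181 in the buds (limma log2 difference -1.26, SE 0.25, adjusted p = 0.0014). Of the abundant members, comp174_c0 scored 3672 and 2906 against 1157 to 3320 in the buds and was not called in limma (0.56, SE 0.36, adjusted p = 0.18), while comp3772_c0 fell to 883 and 1118 against 1409 to 3160 (limma log2 difference -0.97, SE 0.24, adjusted p = 0.0058). The call of comp3772_c0 was lost in limma without metacarpals (adjusted p = 0.19, in a range of 0.002 to 0.19 over its alternatives). The last member inside the set, comp2773_c0, rose to 1933 and 4691, against 783 to 894 in the buds (limma log2 difference 1.83, SE 0.22, adjusted p = 6.7e-05). Across the 100 members, the smallest log2 ratio that ranked them and the fetal difference had a Pearson r of 0.22 and a Spearman rho of 0.23. Both are across components of the same libraries and describe them only.

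The 3 outcomes went with different bud and metapodial levels, which are themselves part of the comparison. For the members that rose, the median over members of the mean score was 70.0 in S14 buds, 237 in digits, 68.5 in interdigital tissue and 764 in metapodials. For those that fell it was 278 in buds, 214 in digits, 84.7 in interdigital tissue and 51.5 in metapodials. For those not called it was 153, 315, 111 and 157 in the same order. Digit levels were thus alike in the members that rose and fell. Buds and metapodials stood in opposite order, as the calls that define these members require. The fetal mean, which also enters the calls, exceeded the digit mean in 44 of the 50 that rose, in 0 of the 21 that fell and in 3 of the 29 not called.

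**Figure D3:**
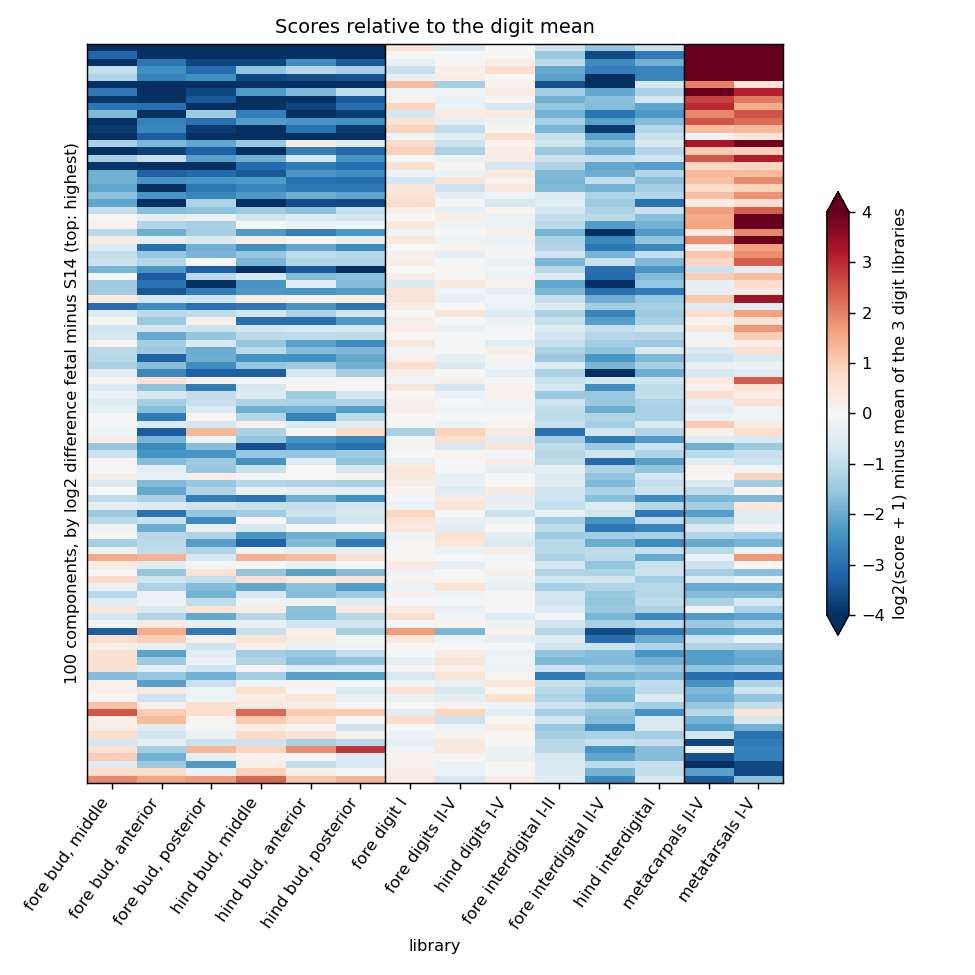
Each row is 1 of the 100 components and each column a library; colour gives log2(score + 1) minus the mean of the 3 digit libraries, cut at 4 in either direction. Rows run from the highest fetal minus S14 difference (9.91, top) to the lowest (-4.18, bottom). The top rows are blue in buds and red in metapodials. The lowest rows are mostly blue in metapodials, with buds red in some of them and blue in others. Interdigital columns are mostly blue throughout, as the choice of members requires.

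Set against the S15-17 tissues, the buds scored below the digits for most members. The mean bud score lay below the interdigital mean for 36 members, between interdigital and digit mean for 50, and above the digit mean for 14. The fetal mean lay below the interdigital mean for 25, between for 28 and above the digit mean for 47. In 24 members the bud mean was under the interdigital mean and the fetal mean over the digit mean. In 5 the bud mean was over the digit mean and the fetal mean under the interdigital mean. Of the 12720 components that could enter the set, 54.5% had a bud mean above the digit mean and 35.7% a fetal mean above it. Members were chosen for high digit scores, so these places carry no test.

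Both limbs were also taken apart. Metacarpals scored above the mean of the forelimb buds in 61 members, with a median log2 difference of 0.74, against 44.7% of all components and a median of -0.19. Without the middle bud part, they did so in 66 members with a median of 1.14, against -0.18 over all. Metatarsals scored above the mean of the hindlimb buds in 71 members, with a median of 1.31, against 43.3% of all components and a median of -0.26. In both limbs 60 members were above the buds and 28 below, against 37.3% and 49.3% of all components. Without metacarpals limma called 48 members higher and 11 lower, against 21.7% and 35.1% of all components. Without metatarsals it called 36 higher and 15 lower, against 21.4% and 33.0%. Without the middle forelimb bud it called 52 and 19, against 27.5% and 38.8%. The median log2 difference between fetal metapodials and S14 buds was then 1.32 over members and -0.23 over all components. Dissected bones are set here against whole bud parts, so period and dissection cannot be told apart, nor can fewer cells of a type and less RNA per cell.

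Within the S14 buds, limma called 0 members between middle and outer parts, and 0.0% of all components, but the members leaned to the middle part of the forelimb bud. In that bud 85 members scored higher in the middle than in the average of anterior and posterior, with a median log2 difference of 0.78, against 51.2% of all components and a median of 0.01. In the hindlimb bud 51 members did so, with a median of 0.02, against 53.6% of all components and a median of 0.02. The middle part was over 2-fold higher than the outer average in 39 members in the forelimb, against 6.61% of all components and 2.7% of the 12720. In the hindlimb it was so in 5 members, against 3.37% of all. The middle forelimb bud was the highest of the 6 bud libraries for 53 members, against 15.2% of all components and 13.7% of the 12720.

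As examples picked here after their values were seen, comp10215_c0 had 168 in the middle part of the forelimb bud against 42 in the anterior and 63 in the posterior part. The hindlimb parts had 90, 88 and 93. In the abundant comp477_c0 the middle forelimb part scored 2267 against 917 and 829, and the middle hindlimb part 2010 against 1733 and 1772. In both components the middle part of the forelimb bud stood well above its neighbours, while in the hindlimb bud it did so by less in comp477_c0 and not in comp10215_c0.

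Over both limbs together the median middle minus outer log2 difference of members was 0.41 and 80 of 100 were positive, against 0.02 and 52.9% of all components. No single member passed the test: the smallest adjusted p of any component in limma was 0.93, and 22 members had an unadjusted p under 0.05, against 4.85% of all components. Robust variance shrinkage called 2 members and 0.171% of all components, and voom on recovered reads 1 member and 0.049%, all of these members higher in the middle. Without the middle forelimb bud the median was 0.02 and 51 members were positive, against 0.02 and 53.9% of all components. The lean to the middle thus rested on that 1 library. Whether it comes from the part, the embryo or the library was not tested, since the part has no repeat library. The middle minus outer difference averaged over both limbs was positive in 35 of the 50 members that were higher in fetal metapodials. It was positive in 20 of the 21 that were lower and 25 of the 29 not called. This average need not hold in each limb.

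**Figure D4:**
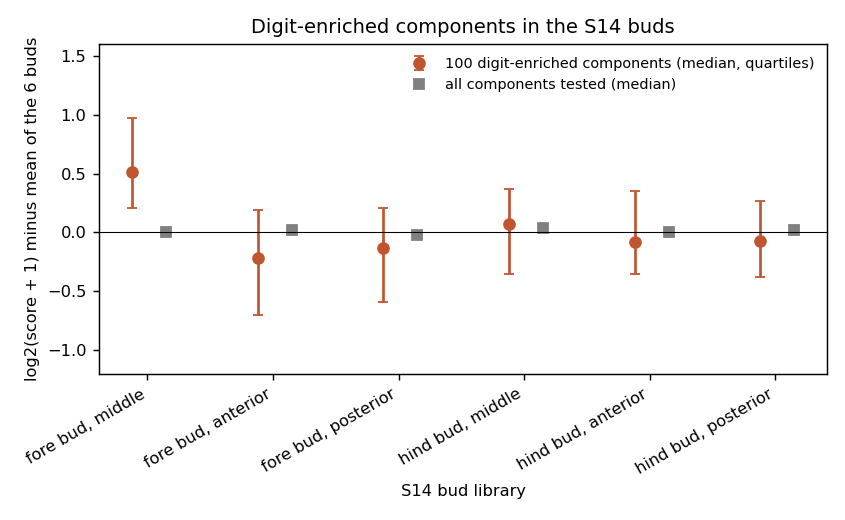
Deviation of each S14 bud library from the mean of the 6 buds, as log2(score + 1), with median and quartiles over the 100 digit-enriched components (circles with bars) and the median over all components tested (squares). The middle forelimb bud lies at 0.51 for the digit-enriched components, and the other 5 buds between -0.22 and 0.07, while the medians of all components lie between -0.02 and 0.04.

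Forelimb and hindlimb buds differed in 0 members by limma, and in 0.0% of all components. The median log2 difference was 0.02 with 52 members higher in forelimb, against -0.02 and 47.5% of all components. By part, forelimb was higher than hindlimb in 76 members in the middle bud (median 0.47), in 43 in the anterior (-0.1) and in 44 in the posterior bud (-0.11). The corresponding shares over all components were 45.0%, 49.3% and 44.2%. An unadjusted p under 0.05 was found for 19 members and for 10.7% of all components. Robust shrinkage called 3 members, against 0.734% of all components, and voom 2, against 0.352%, all of these members higher in forelimb. Without the middle forelimb bud the median was -0.11 and 42 members were higher in forelimb, against -0.01 and 48.6% of all components.

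Between anterior and posterior bud parts, limma again called 0 members and 0.0% of all components. The anterior part was higher in 54 members, with a median log2 difference of 0.03, against 51.2% and 0.01 for all components. An unadjusted p under 0.05 was found for 12 members and for 3.88% of all components, and robust shrinkage called 1 member, lower in the anterior part, and 0.0245% of all. Voom called 0 components.

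In the fetal bones most members scored lower in metacarpals than in metatarsals. This was so for 75 members, while 25 were higher, and 47.9% of all components were lower, as were 49.3% of the 12720. The median log2 difference was -0.37, against 0.00 over all components. Over 2-fold, 21 members were lower and 7 higher, against 8.35% and 9.50% of all components. Each bone group has 1 library, so no test was possible and the difference has no replicate check. The metacarpals were those of digits II-V and the metatarsals those of digits I-V, so limb and set of digits cannot be told apart. The members' share of all scores was 0.708% for metacarpals and 1.328% for metatarsals, or 0.646% and 1.022% without comp477_c0.

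Over 4-fold, 2 members were higher and 4 lower in metacarpals, as were 2.97% and 2.64% of all components. Component comp6603_c0 scored 89 in metacarpals against 14 in metatarsals. It had 146, 38 and 246 in the middle, anterior and posterior forelimb bud against 181, 366 and 712 in the hindlimb bud, so its limb order was the opposite there. Component comp13436_c0 scored 128 against 26. In the other direction, comp8413_c0 scored 361 in metacarpals against 2417 in metatarsals, and comp477_c0 scored 6128 against 32108, the highest score of any member in any library.

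**Figure D5:**
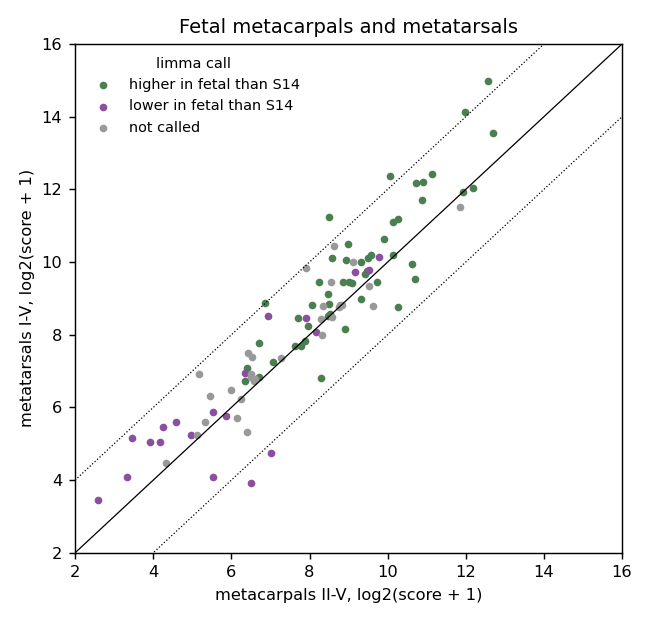
Each point is 1 of the 100 digit-enriched components, with log2(score + 1) in metacarpals on the horizontal axis and in metatarsals on the vertical axis; colours give the limma call between fetal metapodials and S14 buds. The solid line marks equal values and the dotted lines 4-fold differences. There are 75 points above the solid line and 25 below it.

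The limb by stage interaction is the fetal minus S14 difference of the forelimb minus that of the hindlimb. Each limb has 1 fetal library, and the test takes it to vary like the buds, so its p-values measure the spread among buds only. On that footing limma called 4 members with a negative interaction and 0 with a positive one, against 1.04% and 1.8% of all components. Component comp8413_c0 scored 361 in metacarpals against 132, 96 and 108 in the middle, anterior and posterior forelimb bud, and 2417 in metatarsals against 73, 88 and 74 in the hindlimb bud. Its limb by stage interaction in limma was -3.24 on the log2 scale (SE 0.32, adjusted p = 0.0096). Component comp10971_c0 scored 116 in metacarpals against 95, 132 and 100 in those parts of the forelimb bud, within the range of the buds. In metatarsals it scored 465 against 81, 78 and 91 in the hindlimb bud, above all 3, with an interaction in limma of -2.36 (SE 0.35, adjusted p = 0.025). All 4 called members were higher in metatarsals than in metacarpals. In comp4137_c0, picked here after its values were seen, the limbs differed in direction: it scored 397 in metacarpals against 815, 730 and 611 in the forelimb bud, and 1401 in metatarsals against 569, 547 and 624 in the hindlimb bud.

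Over the 100 members the median interaction was -0.53, with 68 negative, against 0.03 over all components, of which 9808 of 20429 were negative. With the middle forelimb bud left out, the values over all components were 0.04 and 9729 of 20429. An unadjusted p under 0.05 was found for 19 members and for 16.9% of all components. Voom called 1 member with a positive and 7 with a negative interaction, against 4.35% of all components in either direction. Without the middle forelimb bud the median was -0.27 with 57 negative, and limma called 6 members with a negative and 2 with a positive interaction, against 0.93% and 1.84% of all components. The call of comp10971_c0 was lost in limma without the posterior forelimb bud (adjusted p = 0.063) and without the anterior (0.088), middle (0.076) or posterior hindlimb bud (0.072), in a range of 0.0056 to 0.088 over its alternatives.

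The 100 components with the highest scores in the opposite direction, interdigital over digit in all 3 regions, were run through the same tests. In fetal metapodials against S14 buds limma called 38 of them higher and 25 lower, with a median log2 difference of 0.43. For the digit-enriched set these values were 50, 21 and 1.13. Over all 20429 components tested the shares were 27.5% and 39.4%, with a median of -0.23. Both sets thus had more higher and fewer lower calls than the components tested, so this direction was not particular to the digit-enriched set. In the buds 40 of them were higher in the middle part, against 80 of the digit-enriched members and 52.9% of all components. Their median limb by stage interaction was 0.27, against -0.53 for the digit-enriched members and 0.03 over all components. The differences between both sets were not tested.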

How the data were processed

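The authors deposited 1 table of whole-number scores for 64618 components in 14 libraries. Per the labels' protocols, DNase-treated total RNA went into TruSeq libraries. The tools listed in the submitters' processing notes, with no role given, are CASAVA 1.8, RSEM and edgeR. The sources used here do not say how the transcripts were assembled or the scores normalized. The deposited scores are normalized counts rounded to whole numbers: in each library they are rounded multiples of 1 step, the score of 1 read, between 1.29 and 2.23. The step was the largest for which all scores up to 60 matched, narrowed with scores up to 2000, and 99.995% to 100% of all nonzero scores were within 0.5 (plus 1e-06 of the score) of a multiple. These recovered reads were used with limma voom and for intervals only.

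Values of log2(score + 1) were tested with limma 3.58.1 (R 4.3.3), its variance prior following the mean. This scale understates the change of low components. Components averaging 10 or more over all 14 libraries were kept, 20429 in number with 98.95% of all scores, and all 100 members passed. Limb was a covariate (fetal against S14; middle against outer and anterior against posterior parts, in 1 fit) and bud part a block (forelimb against hindlimb). The interaction fit had limb, stage and their product. All p-values are two-sided and were adjusted by Benjamini-Hochberg across the kept components. The tests were tried on simulated reads whose noise was independent between libraries. Bud parts without repeat libraries need not behave so, and the calls given here draw no support from that trial. Other values came from Python 3.11.15 (pandas 2.3.3, numpy 2.4.6, scipy 1.17.1; figures matplotlib 3.10.9).

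Members and comparisons were chosen with earlier results of these data known. Components were named by rule: the 2 with the highest rank, the 2 most abundant in digits, ranks 100 and 101, and at most 2 per direction among called members of a comparison, or among those over 4-fold where 1 library stood against 1. Alternatives were leaving out each library, voom, upper-quartile scaling, centring libraries on their median, robust variance shrinkage, other pseudocounts (0.25 and 5), no filter, no covariate or block, and choosing members with a pseudocount of 5 or a minimum mean of 100.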

Additional observations from a re-analysis of the deposited data

Results flagged for a closer look

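The members' share of the score stood apart in the middle part of the forelimb bud, at 0.392% against 0.237% to 0.272% in the other 5 buds. The gap to the nearest library was 0.774 of the whole range, above Dixon's 95% critical value for 6 libraries. Of 17 sets of values over the 6 buds examined this way, this 1 passed, and chance alone passes about 1 in 20.

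The change between S14 and fetal stage differed between limbs in comp8413_c0 and comp10971_c0, by the limb by stage interaction in limma. It was -3.24 for comp8413_c0 (adjusted p = 0.0096) and -2.36 for comp10971_c0 (adjusted p = 0.025, and 0.063 to 0.088 in the 4 limma fits, each without 1 bud library, that lost the call). Each limb has 1 fetal library, so the fetal values have no replicate. Metatarsals lay above all hindlimb buds in both, and metacarpals above all forelimb buds in comp8413_c0 alone.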

How the results depend on the processing

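In fetal metapodials against S14 buds, 46 to 52 members were called higher and 17 to 22 lower under every alternative that kept all libraries, and 36 to 52 and 11 to 22 when 1 library was left out. Of the 71 called members, 50 to 71 stayed called and 0 changed sign. With the filter and all libraries kept, 4708 to 6546 of all 20429 components were called higher and 6874 to 9399 lower. Without the filter, 20.6% of 63971 were called higher and 14.3% lower. With 1 bud library left out, 5294 to 5628 of the 20429 were called higher and 7638 to 8043 lower. Calls over all components thus moved with the processing too. Over the 100 members the median ran from 0.88 (median-centred libraries) to 1.34 (upper-quartile scaling), against -0.48 to -0.03 over all components. It was 0.95 and 0.79 over the members chosen with a pseudocount of 5 and with a minimum mean of 100. Without 1 library it was 0.74 to 1.32. With that minimum, 66 of the 100 members stayed.

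Bud comparisons called members only with 2 tools: robust shrinkage gave 3 higher in forelimb, 2 higher in the middle and 1 lower in the anterior part, and voom gave 2, 1 and 0. Without 1 library no bud comparison called any, at 0 to 0, and the anterior minus posterior median ran from -0.17 to 0.27. It was 0.01 with upper-quartile scaling and with voom. The limb by stage interaction called 0 to 2 higher and 1 to 6 lower members without 1 library, and 1 and 7 with voom. Over all 20429 components it called 108 to 376 higher and 72 to 219 lower without 1 library, and 530 and 359 with voom. Among named components outside the interaction, comp6603_c0 lost its call in fetal against S14 most often (limma adjusted p = 0.044, with 0.0095 to 0.82 over alternatives). Forelimb and hindlimb buds were paired by part, and without that block the calls stayed at 0. The limit is 1 library per part, which leaves the spread within a part unmeasured.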
